A study of Homo sapiens with 4 samples.

Results

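The collagen genes of the human genome were examined for binding of the oestrogen-related receptor ERRα in MDA-MB-231 cells, an established human line from an invasive breast cancer of the triple-negative kind. They were taken by name, as the protein-coding genes in a RefSeq table of GRCh38 whose symbol is COL, a number, A and a number (such as COL1A1). This gave 44 of 20037 protein-coding genes on chromosomes 1 to 22, X and Y. The series holds 2 ERRα ChIP libraries (chromatin immunoprecipitation with an ERRα antibody and sequencing) and 2 input libraries of the same cells, which had no antibody. No treatment or genotype is named in the labels. Each ChIP used 5 µg of antibody on the chromatin of 2500000 cells fixed with 1% formaldehyde. The labels' read numbers lack an exponent sign and were read as 29000000 reads for ERRα and 10000000 for input libraries.

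Collagens are secreted or membrane-bound proteins of 3 chains wound into a triple helix, and they form much of the extracellular matrix. Fibrillar collagens build the rope-like fibres of connective tissue, and basement membrane collagens of type IV build the sheet under epithelia that invading carcinoma cells must cross. The other collagens decorate fibrils, form networks and filaments, anchor cells to the matrix or span the cell membrane. ERRα, a nuclear receptor with no known natural ligand, is mostly studied for its control of mitochondrial energy genes. It binds DNA at an extended half-site, the ERR response element, with the letters TNAAGGTCA. A peak near a gene is a measure of ERRα on chromatin and not of that gene's expression.

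Peaks were counted for a gene if the summit, the point of highest signal, lay inside the gene or within 50 kb of it. Replicate 1 had 14072 peaks on these chromosomes and replicate 2 had 12659, and the deposited list of peaks matched between the replicates had 10059. Matched peaks with an irreproducible discovery rate (IDR) of at most 0.05 are called reproducible here, and there were 5070. At collagen genes there were 74 summits in the replicate 1 list, 64 in the replicate 2 list, 50 in the matched list and 29 reproducible ones. Each peak's fold, as the authors deposited it, divides the ChIP signal at the summit by the input background around it. There is no value for an input library alone, the inputs are shared by both replicates, and with 2 ChIP libraries no test of a condition can be made. The values are descriptions, set beside the same measure over all protein-coding genes. Intervals for shares are exact Clopper-Pearson 95% intervals and cover counting error only.

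Of the 44 collagen genes, 19 (43.2%, 95% interval 28.3 to 59.0) had a reproducible summit inside or within 50 kb, against 33.7% of all protein-coding genes. A summit lay inside the gene itself for 11 of the 44 (25.0%, 13.2 to 40.3), against 11.5% of all protein-coding genes. Collagen genes are long, with a median of 145 kb against 24.1 kb for all protein-coding genes. At the shares that all protein-coding genes of the same length classes had, 16.4 of the 44 would have a summit inside or within 50 kb, and 9.16 would have one inside. The collagen counts of 19 and 11 are close to these. Counted per length, collagen windows held 2.68 reproducible summits per Mb and all protein-coding windows held 2.3. Without COL27A1 the collagen windows held 2.09 per Mb.

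**Figure D1:**
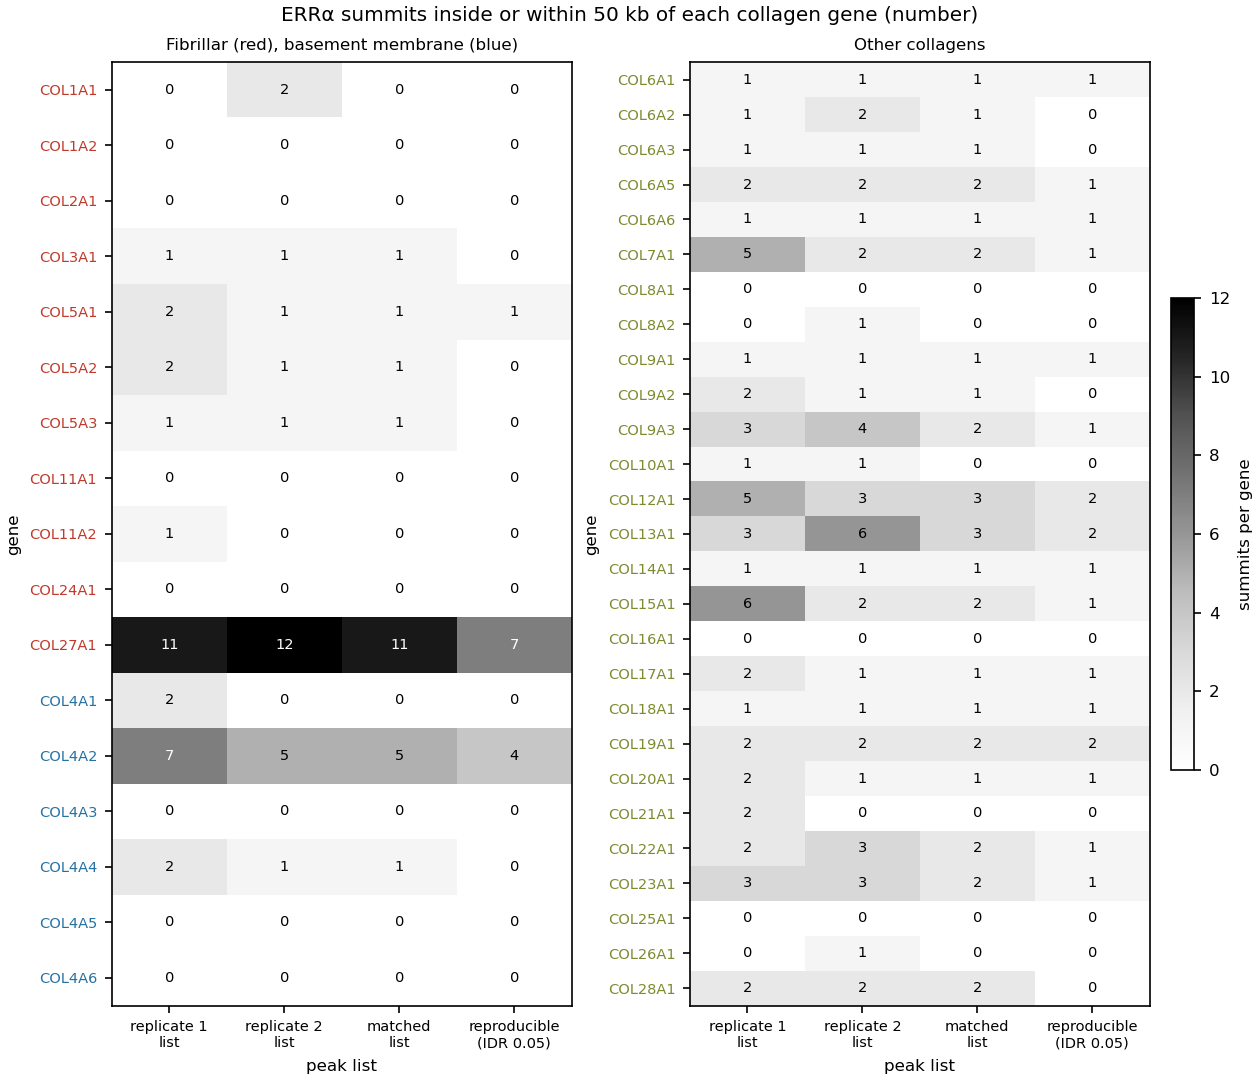
Number of ERRα summits inside or within 50 kb of each of the 44 collagen genes (rows) in the list of replicate 1, that of replicate 2, the matched one and among reproducible peaks (columns). COL27A1 had 11, 12, 11 and 7, COL4A2 had 7, 5, 5 and 4, and 10 genes had 0 in all 4 columns.

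The collagens were then counted by class. Fibrillar collagens had a reproducible summit in 2 of 11 genes (18.2%, 95% interval 2.28 to 51.8), COL27A1 and COL5A1. Basement membrane collagens had one in 1 of 6 genes (16.7%, 0.421 to 64.1), COL4A2. All other collagens had one in 16 of 27 genes (59.3%, 38.8 to 77.6). For COL6A6, COL7A1, COL9A3 and COL20A1, which are among these 16, the summit was nearer to another gene. At the shares of all protein-coding genes of the same length, the counts of the 3 classes would be 4.05, 2.28 and 10.0. The fibrillar and basement membrane counts were below these values and that of the others was above. The 3 intervals are wide and overlap, but overlap does not compare the classes, and a difference between them was not tested. The others include COL15A1 and COL18A1, which are basement membrane collagens outside type IV. Both had a summit, against 0.759 at equal length, so the contrast of these 2 classes depends on where they are counted. In the other lists the fibrillar counts were closer to the value at equal length, with 6 against 7.04 in the replicate 1 list, 6 against 6.71 in the replicate 2 list and 5 against 5.99 in the matched list. Basement membrane collagens had 3 against 3.89, 2 against 3.78 and 2 against 3.34 in these lists, and the others 22 against 17.2, 23 against 16.5 and 20 against 14.7. Per length the order was another one, since fibrillar windows held 3.01 summits per Mb, basement membrane windows 2.57 and the other windows 2.58, against 2.3 over all protein-coding genes. The fibrillar value rests on COL27A1, without which it was 0.417 per Mb. The basement membrane value rests on COL4A2 alone, whose window held all 4 summits of that class, 2 of them inside the gene.

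**Figure D2:**
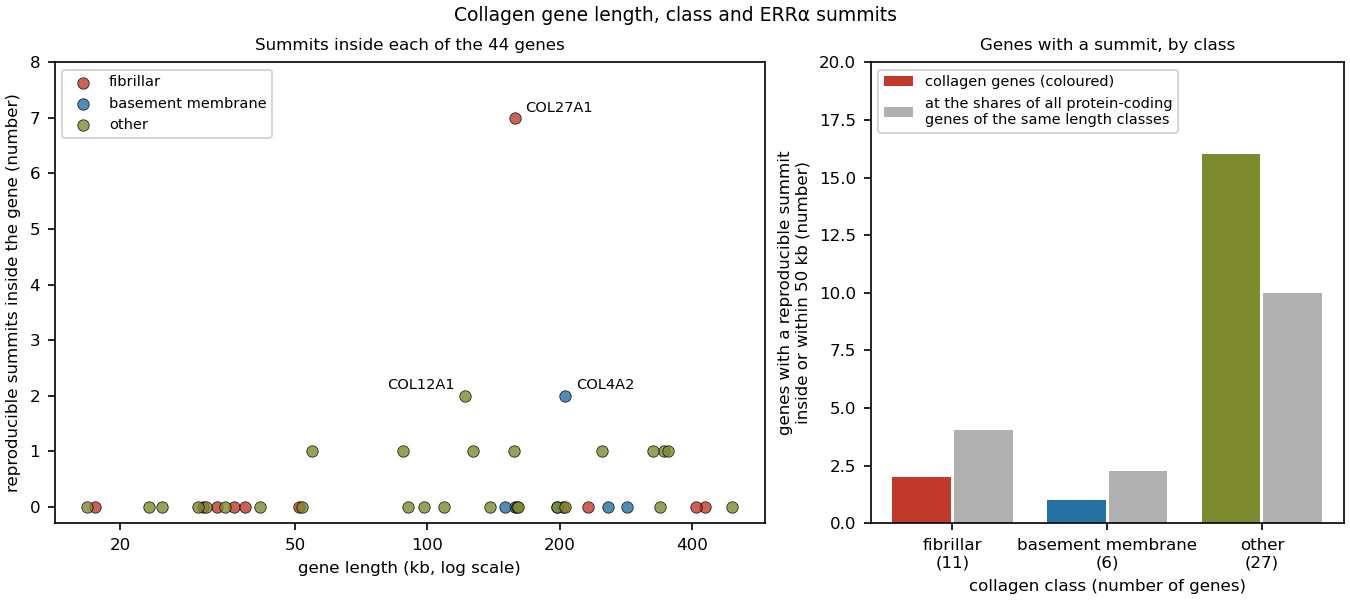
Left: reproducible summits inside each collagen gene (vertical axis, number) against gene length (horizontal axis, kb, log scale), coloured by class. Right: genes with a reproducible summit inside or within 50 kb in each class (coloured bars), beside the number at the shares of all protein-coding genes of the same length classes (grey bars). COL27A1 stands alone with 7, and the other class has 16 genes against 10.0.

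The classes were also compared among genes of like length. Of the 5 fibrillar genes of 30 to 100 kb, none had a reproducible summit, while 4 of the 8 other collagens of that length did. Among genes of 100 to 300 kb, 2 of 3 fibrillar, 1 of 6 basement membrane and 7 of 10 other collagens had one, against 37.9% of all protein-coding genes of that length. Both fibrillar genes over 300 kb, COL24A1 and COL5A2, had none, and 3 of the 5 other collagens of that length had one, against 44.5% of all protein-coding genes over 300 kb. Of genes under 30 kb, 2 of 5 collagens had one, against 31.8% of all such genes. Of genes of 30 to 100 kb, 4 of 13 collagens had one, against 34.2%. Summits inside the gene were found in 0 of 5 collagens under 30 kb (5.84% of all such genes), 2 of 13 of 30 to 100 kb (13.6%), 6 of 19 of 100 to 300 kb (23.5%) and 3 of 7 over 300 kb (37.6%). Over the 44 genes, Spearman's rho of gene length and the number of reproducible summits inside was 0.247, and over all 20037 genes it was also 0.247. These are descriptions across genes, which are not independent.

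COL27A1, which encodes a fibrillar chain made in cartilage, held more ERRα summits than any other collagen gene. It lies on chromosome 9 from 114154098 to 114312511 (GRCh38) and is 158 kb long. It had 11 summits inside the gene in the replicate 1 list, 11 in the replicate 2 list and 7 among reproducible peaks. Of all 20037 protein-coding genes, 2 had 7 or more reproducible summits inside, COL27A1 included, and of the 2583 genes of 100 to 300 kb COL27A1 was the only one. With all matched peaks, 4 genes had as many inside as COL27A1 or more, itself included, and with the replicate 1 and replicate 2 lists 14 and 9 did. The 7 summits made up 36.8% of the 19 reproducible summits inside collagen genes.

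The strongest of them, from 114221441 to 114222604, lay 67.8 kb from the annotated start of the gene. Its fold was 54.3 in replicate 1 and 69.9 in replicate 2, a mean of 62.1 ± 11.0 (SD, n = 2), which was rank 154 of all 5070 reproducible peaks. At 71.1 kb a second summit had folds of 20.8 and 21.3, and at 65.2 kb another had 8.05 and 8.89. These 3 lay within 5.88 kb of each other, and the one at 67.8 kb had the highest fold of the gene in both replicates. Of the other summits of COL27A1, the one at 20.7 kb from the start had folds of 18.2 in replicate 1 and 9.06 in replicate 2. In proportion, it differed most between the replicates. The one at 85.8 kb had 14.5 and 12.6, that at 128 kb had 13.4 and 10.5, and that at 134 kb had 15.6 and 21.0. The peaks were wide, with a median of 1105 bp against 774 bp for all reproducible peaks, and 19.1% of all reproducible peaks were at least as wide. The summits were spread over 113 kb of the gene, and the one nearest to an end was 20.7 kb from it. MIR455, a microRNA gene inside COL27A1 at 55.3 kb from its start, was 9.77 kb from the nearest of them.

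**Figure D3:**
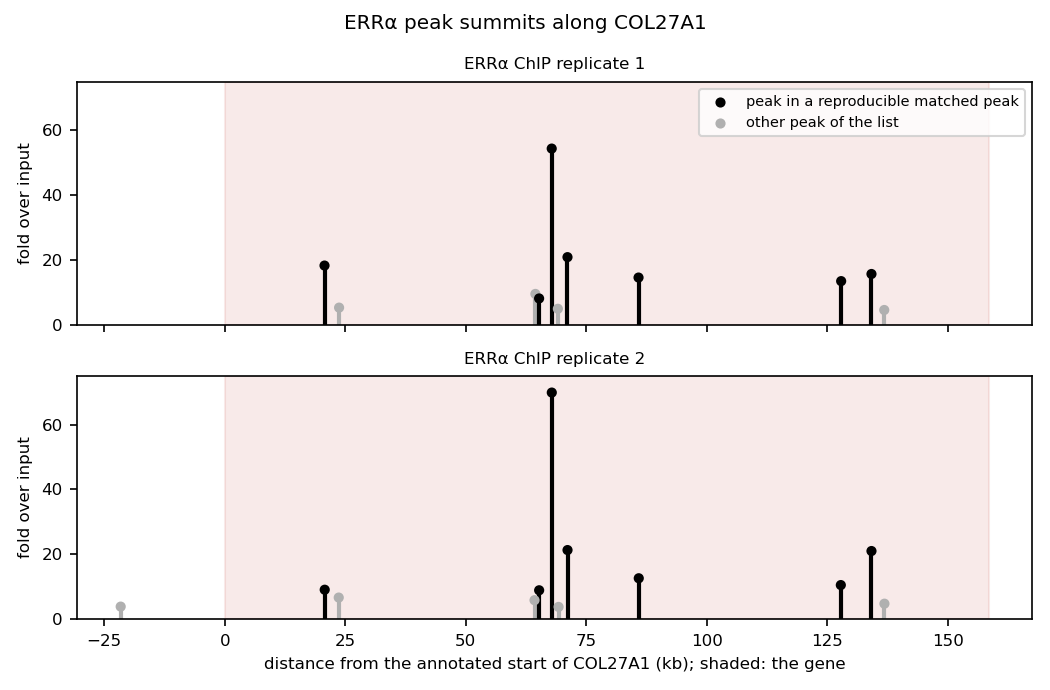
Fold over input (vertical axis) of every peak summit of the replicate 1 list (upper panel) and the replicate 2 list (lower panel) by distance from the annotated start of COL27A1 (horizontal axis, kb). Black marks belong to reproducible peaks and grey marks do not; both panels show the highest mark at 67.8 kb, with folds of 54.3 and 69.9.

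A further 4 matched peaks inside COL27A1 did not pass the IDR limit. The one nearest the end of the gene lay 137 kb from its start, with folds of 4.49 in replicate 1 and 4.75 in replicate 2. Its matched summit was 74 bases before the start of LOC124902252, a long non-coding RNA gene inside COL27A1 on the other strand. The 250 bases before that start, chr9:114290814-114291063 on the minus strand, are shown because they are the only such window of the promoter table, under a peak counted for a collagen gene, that holds the whole ERR response element. Capitals mark matches to the response element and to its core AAGGTCA, on either strand.
LOC124902252: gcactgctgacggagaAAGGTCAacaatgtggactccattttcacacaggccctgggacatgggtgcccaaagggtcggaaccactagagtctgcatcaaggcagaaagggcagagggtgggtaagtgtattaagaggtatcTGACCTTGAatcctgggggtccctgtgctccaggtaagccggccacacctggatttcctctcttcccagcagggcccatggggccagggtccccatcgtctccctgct
The match nearer the start begins 108 bases before it and reads TCAAGGTCA on the opposite strand, and the core match begins 234 bases before it. The core match on the opposite strand is part of the longer one. Within the 300-base windows around gene starts, the letters TNAAGGTCA on either strand were in 101 of 15843 protein-coding genes (0.638%), and the core AAGGTCA was in 496 (3.13%). A match is a description of letters, not of a binding site.

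COL5A1 was the other fibrillar gene with a reproducible summit. It encodes a chain of type V collagen, which starts the assembly of type I fibrils. The summit, in a peak on chromosome 9 from 134638052 to 134638444, lay 3.55 kb before the annotated start. Its fold was 9.51 in replicate 1 and 8.06 in replicate 2 (mean 8.79 ± 1.03, SD, n = 2), which ranked 4464 of 5070. No other protein-coding gene was nearer.

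The genes for the most abundant fibrillar collagens had no reproducible summit in their windows. COL1A1, COL1A2 and COL3A1 encode the chains of types I and III, which fill connective tissue and tumour stroma. The summit nearest to COL1A1 was 51.2 kb away, just outside the 50 kb limit, with folds of 35.4 and 31.8, and the nearest gene end to it was that of PPP1R9B. Just inside the limit, 48.9 kb from COL4A2, lay a summit with folds of 19.8 and 15.7. In the replicate 2 list alone, COL1A1 had summits 8.85 kb and 32.3 kb away with folds of 4.43 and 5.94. COL1A2 had no summit in any list, and its nearest reproducible one was 78.3 kb away. COL3A1 and COL5A2, which are neighbours on chromosome 2, shared a matched summit that did not pass the IDR limit. It lay inside COL5A2, 5.67 kb from an end, and had folds of 4.48 and 3.96. COL5A3 also had a matched summit that did not pass, with folds of 5.54 and 7.05. COL11A2, a cartilage collagen gene, had a summit inside in the replicate 1 list alone, with a fold of 6.85. COL2A1, COL11A1 and COL24A1 had no summit in any list.

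Type IV collagen genes lie head to head in pairs that share a promoter region. The annotated starts are 127 bp apart for COL4A1 and COL4A2, 136 bp for COL4A4 and COL4A3, and 380 bp for COL4A6 and COL4A5. No peak of any of the 3 deposited lists overlapped the 300-base windows around these 6 starts. Reproducible summits were found on the COL4A2 side of the first pair. COL4A1 and COL4A2 encode the chains of the type IV network found in nearly all basement membranes.

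Inside COL4A2, on chromosome 13, a peak from 110457941 to 110458684 lay 151 kb from the start, with folds of 15.9 in replicate 1 and 14.3 in replicate 2 (mean 15.1 ± 1.09, SD, n = 2). A weaker one at 140 kb had 8.08 and 8.98. Beyond the end of the gene, a peak from 110561834 to 110562505 was the strongest in the window, with folds of 19.8 and 15.7 (mean 17.8 ± 2.88, SD, n = 2). That summit was 48.9 kb from COL4A2 and 0.417 kb from the nearer boundary of RAB20, a gene for a small GTPase of membrane traffic whose start and end were not told apart here. A summit 13.1 kb from COL4A2, with folds of 9.13 and 9.27, lay inside RAB20. COL4A1 had 2 summits in its window in the replicate 1 list, with folds of 6.47 and 4.71, and none in the replicate 2 list. Its nearest reproducible summit was 140 kb away. COL4A4 had a matched summit that did not pass the IDR limit (folds of 4.95 and 7.65). COL4A3 and COL4A5, whose chains build the filter membrane of the kidney, and COL4A6 had no summit in any list. Their nearest reproducible summits were 248, 836 and 1090 kb away.

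**Figure D4:**
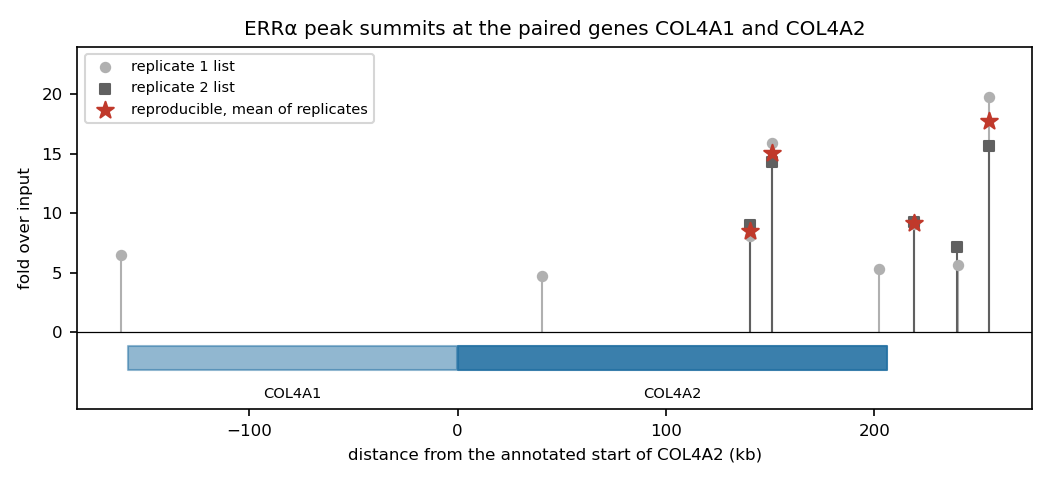
Fold over input (vertical axis) of ERRα summits in the windows of COL4A1 and COL4A2 by distance from the annotated start of COL4A2 (horizontal axis, kb). Grey marks are rows of the replicate lists and red stars are reproducible summits at their mean fold; the bars below are the genes. All 4 stars lie 140 kb or more from the shared start, on the COL4A2 side.

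The other collagens are described by their roles. Fibril-associated collagens (FACITs), which bind to the surface of fibrils, had a reproducible summit in 7 of 10 genes, against 3.76 at the shares of all protein-coding genes of that length. COL12A1, a partner of type I fibrils, had 2 inside the gene on chromosome 6. The stronger, from 75197859 to 75198637, was 7.79 kb from the start and 39.4 kb from COX7A2, the nearest other gene, which encodes a cytochrome oxidase subunit. Its fold was 16.0 in replicate 1 and 16.8 in replicate 2. The other, at 107 kb, had 12.3 and 9.83. COL14A1, of the same family, had a summit 86.1 kb inside the gene, in a peak on chromosome 8 from 120210123 to 120211009. Its folds were 19.3 and 20.2 (mean 19.7 ± 0.627, SD, n = 2).

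The neighbours COL9A1 and COL19A1 on chromosome 6 share a window. A peak from 70219917 to 70220518, inside COL9A1 near its end and 7.79 kb from COL19A1, had folds of 25.6 in replicate 1 and 18.6 in replicate 2 (mean 22.1 ± 4.98, SD, n = 2). It was the strongest summit inside a collagen gene other than COL27A1. COL9A1 encodes a chain that coats type II fibrils of cartilage. COL19A1 had a summit of its own at 38.2 kb from its start, with folds of 8.51 and 11.4. COL22A1, a collagen of tissue junctions, had a summit 157 kb from its nearer end, in a peak on chromosome 8 from 138744562 to 138745504, with folds of 10.5 and 12.3. Summits counted for COL20A1 and COL9A3 on chromosome 20 were nearer to other genes. That of COL20A1 (from 63366382 to 63367267, folds of 17.8 and 17.9) was 32.0 kb away and 5.47 kb from the nearer boundary of CHRNA4, a nicotinic receptor gene. That of COL9A3 (from 62772042 to 62772811, folds of 13.2 and 13.2) was 43.7 kb away and 9.71 kb from the end of NTSR1, a neurotensin receptor gene. Of the remaining FACIT genes, COL9A2 had a matched summit 3.58 kb from its start that did not pass the IDR limit (folds of 9.13 and 6.85). COL21A1 had 2 summits in the replicate 1 list alone (folds of 5.42 and 4.79), and COL16A1 had none in any list.

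Membrane-spanning collagens had a reproducible summit inside or within 50 kb for 3 of 4 genes, against 1.61 at the shares of all protein-coding genes of that length. All 3 had one inside the gene, against 1.12. COL13A1, a collagen of cell adhesion sites, had one 15.5 kb from its start on chromosome 10, in a peak from 69816911 to 69817684, with folds of 12.6 in replicate 1 and 11.5 in replicate 2. Another lay 18.4 kb from the gene, with folds of 10.2 and 13.6. COL17A1, the hemidesmosome collagen that fixes epithelial cells to the basement membrane, had a summit 36.3 kb from its start, in a peak from 104049258 to 104049954. The folds there were 8.76 and 10.3, and the nearest other gene, SLK, was 20.4 kb away. COL23A1 had one 65.0 kb from its nearer end, in a peak on chromosome 5 from 178302299 to 178302931, with folds of 9.13 and 10.5. COL25A1, the longest collagen gene at 494 kb, had no summit in any list, and the nearest reproducible one was 785 kb away. The mean folds of these 4 summits were 9.55 to 12.1, all below the median of 12.9 over all reproducible peaks.

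The multiplexins COL15A1 and COL18A1, basement membrane collagens outside type IV that were counted with the others, each had a reproducible summit. The shares of all protein-coding genes of that length would give 0.759 of the 2. COL18A1 encodes the precursor of endostatin, an inhibitor of blood vessel growth. Its summit, in a peak on chromosome 21 from 45386395 to 45387395, lay 18.2 kb before the start of the gene and 99.0 kb from the nearest other gene, POFUT2. With folds of 40.0 in replicate 1 and 45.9 in replicate 2 (mean 42.9 ± 4.22, SD, n = 2) it ranked 293 of 5070 reproducible peaks and was the second strongest at any collagen gene. COL15A1 had a summit inside, 107 kb from its start, in a peak on chromosome 9 from 99050121 to 99050897, with folds of 15.3 and 18.1 (mean 16.7 ± 1.98, SD, n = 2).

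Type VI collagen, which forms beaded filaments around cells, had reproducible summits near 3 of its 5 genes and inside none of them. The shares of all protein-coding genes of that length would give 1.76 genes inside or within 50 kb and 0.801 inside. Near COL6A1, a peak on chromosome 21 from 45969693 to 45970913 had its summit 11.5 kb away, with folds of 14.1 in replicate 1 and 16.9 in replicate 2. COL6A5 and COL6A6 shared a summit on chromosome 3, in a peak from 130485534 to 130486545, which was 1.32 kb from COL6A5 and 30.6 kb from COL6A6. It had folds of 13.0 and 8.72 (mean 10.9 ± 3.02, SD, n = 2). COL6A2 and COL6A3 had matched summits that did not pass the IDR limit, with folds of 6.85 and 7.25 and of 4.11 and 4.46.

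COL7A1 encodes the anchoring fibrils that fasten skin to the tissue under it. The reproducible summit in its window, in a peak on chromosome 3 from 48608771 to 48609777, lay 14.2 kb before its start but inside the neighbouring gene UQCRC1, 0.161 kb from the annotated start of UQCRC1. UQCRC1 encodes a subunit of respiratory complex III. The folds were 8.19 in replicate 1 and 9.42 in replicate 2 (mean 8.81 ± 0.868, SD, n = 2). Of the 32 collagen genes with a window in the promoter table, COL7A1 was the only one that held the core AAGGTCA (3.12%, against 3.13% of all protein-coding genes), and no collagen window held TNAAGGTCA. No peak of the 3 lists overlapped it. The AP-1 letters TGANTCA were in no collagen window either, against 5.75% of the windows of all protein-coding genes. For TNAAGGTCA that share was 0.638%. Over 32 windows such shares give few or none, and these absences were not tested. The 250 bases before the COL7A1 start, chr3:48595330-48595579 on the minus strand, are shown for this core, in capitals on the opposite strand. Those before COL12A1, chr6:75206054-75206303 on the minus strand, are shown because the COL12A1 window is the only collagen window under a peak of any of the 3 lists. That peak is a row of the replicate 1 list with a fold of 3.46 and its summit 0.121 kb before the start, and the window holds none of the letters searched.
COL7A1: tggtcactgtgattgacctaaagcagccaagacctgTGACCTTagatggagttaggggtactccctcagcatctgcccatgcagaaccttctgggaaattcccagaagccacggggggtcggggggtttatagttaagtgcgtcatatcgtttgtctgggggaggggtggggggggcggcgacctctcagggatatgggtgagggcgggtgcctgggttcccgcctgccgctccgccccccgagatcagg
COL12A1: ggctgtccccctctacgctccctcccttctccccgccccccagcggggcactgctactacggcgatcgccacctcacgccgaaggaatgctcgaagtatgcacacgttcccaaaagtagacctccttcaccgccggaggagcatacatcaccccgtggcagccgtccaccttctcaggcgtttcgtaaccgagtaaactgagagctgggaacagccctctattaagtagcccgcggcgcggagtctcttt

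The network collagens COL8A1, COL8A2 and COL10A1 and the unclassed genes COL26A1 and COL28A1 had no reproducible summit. The shares of all protein-coding genes of that length would give 1.04 network and 0.759 unclassed genes. COL28A1 had a matched summit inside with folds of 6.96 and 9.99 that did not pass the IDR limit. COL10A1, a marker of growth plate cartilage, had a row in each replicate list at different places, with folds of 4.45 in replicate 1 and 5.12 in replicate 2. COL26A1 (fold of 6.04) and COL8A2 (8.86) had a row in the replicate 2 list alone, and COL8A1 had none in any list.

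By the strictest list in which each gene appears, 19 genes had a reproducible summit and 8 had a matched one that did not pass. A row in both replicate lists without a match was found for 1 gene, in the replicate 1 list alone for 3 and in the replicate 2 list alone for 3. No list had a summit for the other 10, which are 33.2 to 494 kb long and 68.0 to 1090 kb from the nearest reproducible summit. In the replicate 1 list 31 genes had a summit (70.5%, against 60.0% of all protein-coding genes), in the replicate 2 list 31 (70.5%, against 56.9%) and in the matched list 27 (61.4%, against 50.8%). A summit inside was found for 21, 17 and 17 genes in these lists, against 24.9%, 22.8% and 19.4% of all protein-coding genes of any length. At the shares of all protein-coding genes of the same length, 17.8, 16.9 and 14.6 genes would have one inside. The count in the replicate 2 list was close to its value at equal length. Counts inside or within 50 kb were above their values at equal length in each list, by less than the shares over any length give. Next to the IDR score limit of 540, the collagen summit just inside was at COL27A1 with a score of 617 (folds of 18.2 and 9.06), and just outside was COL6A2 with 475 (folds of 6.85 and 7.25).

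Summits were also set against the starts and ends of genes. None of the 44 genes had a reproducible summit within 1 kb of its start or end, against 4.49% of all protein-coding genes, a share at which 1.98 of 44 genes would have one. The matched list and the replicate 2 list also had none, against 8.85% and 11.0% of all protein-coding genes. In the replicate 1 list COL5A1, COL7A1 and COL12A1 had one, against 12.2%. The 19 summits inside collagen genes were 5.19 kb or more from both ends of their gene, which was not set against other genes. For the 17 in genes whose strand is known, 7 were nearer the start and 10 nearer the end. Of the 10 reproducible summits found in flanks alone, 5 had the start or end of another gene nearest, and 2 of these, at RAB20 and UQCRC1, were within 1 kb of it.

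In strength, collagen summits were ordinary ERRα peaks. The median of the mean folds was 13.2 over the 29 summits, against 12.9 over all 5070 reproducible peaks, and the range was 8.47 to 62.1. By class it was 13.6 for fibrillar (8 summits, 7 of them in COL27A1), 12.2 for basement membrane (4) and 12.1 for other collagens (17). The fold was higher in replicate 1 at 10 of the 29 summits and in replicate 2 at 19, against 2901 and 2169 of all 5070. COL27A1 at 67.8 kb and COL18A1 stood above the rest, the next being 22.1.

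**Figure D5:**
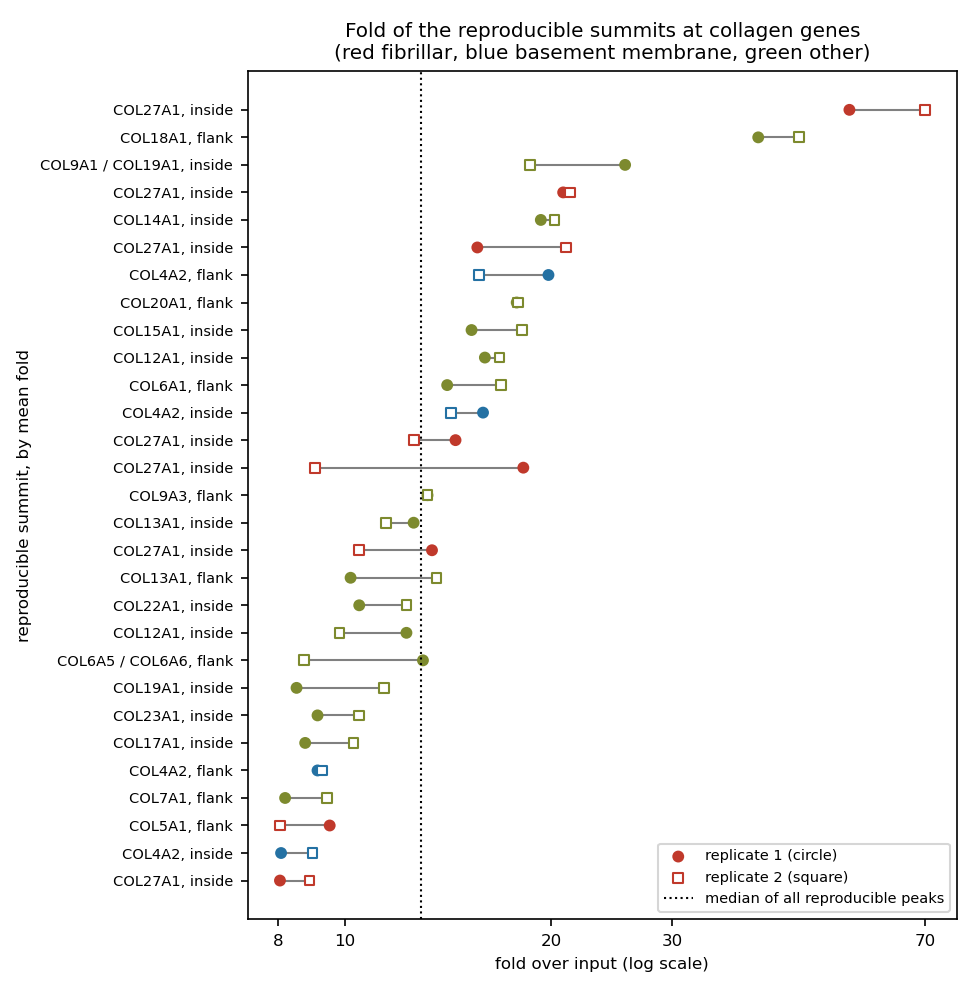
Fold over input (horizontal axis, log scale) of the 29 reproducible summits at collagen genes in replicate 1 (circles) and replicate 2 (squares), ordered by mean fold and coloured by class. The dotted line is the median of all reproducible peaks, 12.9; the summits of COL27A1 (54.3 and 69.9) and COL18A1 (40.0 and 45.9) stand above all others.

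Genes that make, bind or surround collagen were counted in the same way. Of 34 genes of collagen biosynthesis and crosslinking, 14 (41.2%) had a reproducible summit inside or within 50 kb, and 11.6 would at the shares of all protein-coding genes of that length. The strongest were near COLGALT1, a collagen galactosyltransferase (folds of 41.6 in replicate 1 and 33.8 in replicate 2, 41.4 kb away), inside LOXL4, a lysyl oxidase that crosslinks collagen (32.0 and 32.6), and near P3H3, a prolyl hydroxylase (28.5 and 25.4). The COLGALT1 summit was nearer to another gene, at 23.2 kb from the annotated end of UNC13A. The P3H3 summit was 27.7 kb away and 0.167 kb from the annotated start of TPI1, a glycolytic enzyme gene. Of 11 collagen receptor genes 4 (36.4%) had one, and 3.79 would at those shares. DDR2, a receptor kinase activated by fibrillar collagen, had 2 inside, with folds of 25.9 and 19.7 at one and 17.5 and 20.1 at the other. OSCAR, a receptor of the osteoclast lineage, had one inside (13.3 and 16.9). The summit of ITGA11, an integrin subunit, was 18.9 kb away and 0.126 kb from the annotated start of FEM1B (35.2 and 30.7). Of 15 laminin, nidogen and proteoglycan genes of the basement membrane 8 (53.3%) had one, and 5.39 would at those shares. The strongest lay 0.403 kb from LAMB2 and 0.112 kb from the annotated start of USP19 (57.1 and 43.1). LAMA5 had one 2.88 kb away (23.7 and 28.0), and LAMB3 one 5.03 kb away (15.6 and 18.5). All 3 shares stand beside 33.7% of all protein-coding genes.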

How the data were processed

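ERRα ChIP and input were sequenced from MDA-MB-231 cells, with 2 libraries each. Per the submitters' processing notes, reads were handled with MACS2 2.2.6, deepTools, SAMtools and Picard as well as Bowtie2 2.3.5 and Trim Galore 0.6.5, on build hg38. Tool settings: not given in the sources used here. Peaks were deposited by the authors for each replicate and, in another list, for those that matched. In the replicate lists, the deposited fold is the ratio of signal over input at the summit and the deposited −log10 q is the peak caller's. The deposited IDR score of the matched list is 540 or more at an IDR of 0.05. Summit and peak positions were used as deposited by the authors. A peak called against input depends on both depths, and read counts per peak were not used, so no interval covers depth. The labels speak of separate cultures, and an SD over 2 libraries is imprecise.

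Summits on chromosomes 1 to 22, X and Y were placed against RefSeq genes of GRCh38.p14 with Python 3.11.15, pandas 2.3.3, NumPy 2.4.6, SciPy 1.17.1 and matplotlib 3.10.9. Rows elsewhere (371 of replicate 1, 358 of replicate 2 and 272 matched ones) were left out. A summit shared by neighbours counted once in summit totals and for each gene in gene counts. The fold of a matched peak in a replicate is that of the strongest overlapping row of that replicate's list. Gene counts at equal length used the shares of all protein-coding genes under 30 kb, of 30 to 100 kb, of 100 to 300 kb and over 300 kb. Window counting was tested on simulated data. All 44 members were named, with every reproducible summit, and the 3 genes with the highest folds of each other list. Members and lists were chosen with earlier results of these data known. Promoter windows (250 bases before to 50 after a start) were found for 32 of the 44 genes, and were searched on both strands for TNAAGGTCA, AAGGTCA and TGANTCA. Sequences are from RefSeq. Alternatives were the lists, the IDR limit, the flank, the length measure, giving each summit to its nearest gene alone and leaving out COL27A1.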

Additional observations from a re-analysis of the deposited data

How the results depend on the processing

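No paired analysis was possible because the replicates share both inputs and no column pairs a ChIP with an input library. With 1 replicate list alone in place of reproducible peaks, 31 to 31 collagen genes had a summit (main 19), with 64 to 74 summits (29). Within 1 kb of an end, 0 to 3 genes had one (0). Over all protein-coding genes these lists gave 56.9% to 60.0% with a summit (33.7%) and 11.0% to 12.2% near an end (4.49%). The shares became 54.5% to 54.5% of fibrillar (18.2%), 33.3% to 50.0% of basement membrane (16.7%) and 81.5% to 85.2% of other collagens (59.3%). Summits per Mb became 6.40 to 6.40 for fibrillar (3.01), 3.86 to 6.44 for basement membrane (2.57) and 6.22 to 7.13 for other collagens (2.58). Over all protein-coding genes they became 5.69 to 6.32 (2.3). The median fold became 6.90 to 8.23 (13.2), and that of all peaks 7.07 to 7.25 (12.9). With all matched peaks there were 50 summits, 5.27 per Mb for fibrillar and 4.55 for other collagens, against 4.54 over all protein-coding genes. In that list 24 biosynthesis and 8 receptor genes had one (14 and 4). The shares of all protein-coding genes of that length would give 17.4 and 5.68 (11.6 and 3.79). At an IDR of 0.01 the fibrillar value was 1.88, against 1.77 over all protein-coding genes. Without a flank, 11 collagen genes had a summit, against 9.16 at equal length, and 19 summits were left. The share of other collagens was 33.3%, against 11.5% of all protein-coding genes of any length. That share is 9 genes, against 5.56 at equal length. Of the lists, 6 biosynthesis and 4 partner genes (8) had one, against 4.25 and 2.7 at equal length. With a 10 kb flank the share of other collagens was 37.0%, against 18.3% of all protein-coding genes of any length. A value at equal length was not computed for that flank. The fibrillar value with the 10 kb flank was 4.31, against 2.41 over all protein-coding genes. With 100 kb there were 49 summits, 4.10 per Mb for fibrillar and 3.22 for other collagens, against 2.2 over all protein-coding genes. Per gene length alone the fibrillar value was 4.27, against 2.2 over all protein-coding genes. Over the sum of unmerged windows the fibrillar value was 2.92. Within 5 kb of an end, 2 collagen genes had a summit, against 9.28% of all protein-coding genes. With each summit given to its nearest protein-coding gene alone, 15 collagen genes had one (19), with 24 summits (29). The share of all protein-coding genes was not computed for this setting. The genes no longer counted were COL6A6, COL7A1, COL9A3 and COL20A1, all of the other class. Among fibrillar genes, the share was 66.7% at 100 to 300 kb and 0% under 30 kb, at 30 to 100 kb and over 300 kb. Leaving out COL27A1, chosen after seeing the data, gave 0.417 fibrillar summits per Mb and a share of 10.0%. Further values moved by over 1.5 times. The shares among them lay inside the wide counting interval of the main share. The fibrillar share was 45.5% with all matched peaks and with a 100 kb flank, and 9.09% at an IDR of 0.01 and without a flank. The basement membrane share was 33.3% with all matched peaks. Basement membrane summits per Mb were 3.86 with all matched peaks, 1.52 with a 10 kb flank and 1.60 per gene length alone. These per-Mb values have no counting interval. They lay within 1.82 per Mb of the main value, which is the SD of the 2 replicate lists. The other alternatives run moved these values by less than 1.5 times.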
